A study of Homo sapiens with 8 samples.

Results

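The proteasome is the protease complex that takes apart ubiquitin-tagged proteins in the cytosol and nucleus. Its subunits are read here in A2058 melanoma cells with and without TGFβ1. The members are defined by symbol and not by their values, as every gene with a probe whose symbol is PSMA, PSMB, PSMC, PSMD, PSME, PSMF or PSMG and a number, without the interferon-inducible genes PSMB8, PSMB9, PSMB10, PSME1 and PSME2. This gave 39 of the 20045 genes on the array, read by 60 of its 47315 probes. No probe here carries the symbol PSMA7, PSMC5, PSMD7 or PSMD13, and these subunits were not analysed.

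A2058 is a cell line derived from a melanoma metastasis. RNA from 8 wells was hybridised to Illumina HT-12 arrays, 1 array per well, with 4 wells treated with TGFβ1 and 4 control wells. The controls are called vehicle here and untreated in the sample titles. All 8 sample titles also name an empty vector, so the controls are read here as carrying it too. The methods give Lipofectamine2000 for transient transfections in general and do not state it for this expression experiment. According to the methods treatment in this expression experiment lasted 24 h in serum-free media, with TGFβ1 at 5 or 10 ng/ml. The dose of each array is not specified, so the 4 TGFβ1 wells may hold 1 dose or both. Since all wells were seeded together from 1 passage, p-values here reflect variation among wells of 1 line and not among independent cultures.

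Each value is a log2 intensity that was centred by gene, which means that every probe averages 0 over the 8 arrays. A value says how far a well lay above or below the mean of its gene, and no level of one gene can be set against that of another. The cell type could not be checked for the same reason. Of the 7 melanocyte lineage markers with a probe, 3 (MITF, SOX10 and TYRP1) fell under TGFβ1 and 0 rose (limma, adjusted p under 0.05), and of 4 leukocyte markers 0 passed in either direction, with 0 at an unadjusted p under 0.05.

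The core particle, called 20S, is a barrel of stacked rings. Its outer rings consist of alpha subunits (PSMA genes), which gate the entry, and its inner rings of beta subunits (PSMB genes), of which PSMB5, PSMB6 and PSMB7 carry the active sites. The regulatory particle, called 19S, caps the barrel. Its ATPases (PSMC genes) unfold the substrate, and its other subunits (most PSMD genes) hold the scaffold, bind ubiquitin chains or cut them off. PSMG proteins help to build the core particle. Interferon replaces the active beta subunits by PSMB8, PSMB9 and PSMB10, the form known as the immunoproteasome. Transcription of the standard subunits is known to be raised together by the factor NFE2L1 when proteasomes are inhibited.

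Few of these genes passed the test for a change under TGFβ1. Of 39, 2 were higher under TGFβ1, the 19S scaffold subunit PSMD2 and the 19S deubiquitinase PSMD14, and 0 were lower (limma, adjusted p under 0.05). That is 5.13% of the proteasome genes called in either direction, beside 5.7% of all genes (3.03% of all genes were called higher and 2.67% lower), so the share lies near the background. At an unadjusted p under 0.05 there were 9 proteasome genes (4 above and 5 below vehicle), which is 23.1% against 15.6% of all genes, while SAM, which the study names and which was run here on gene means, called 0 of the 39 and 3.77% of all genes. The median log2 change over the 39 genes was −0.023, with a range from −0.27 to 0.32, and the median over all genes was −0.0013. Below 0 lay 25 of the 39 changes, 64.1% against 50.6% of all genes.

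**Figure D1:**
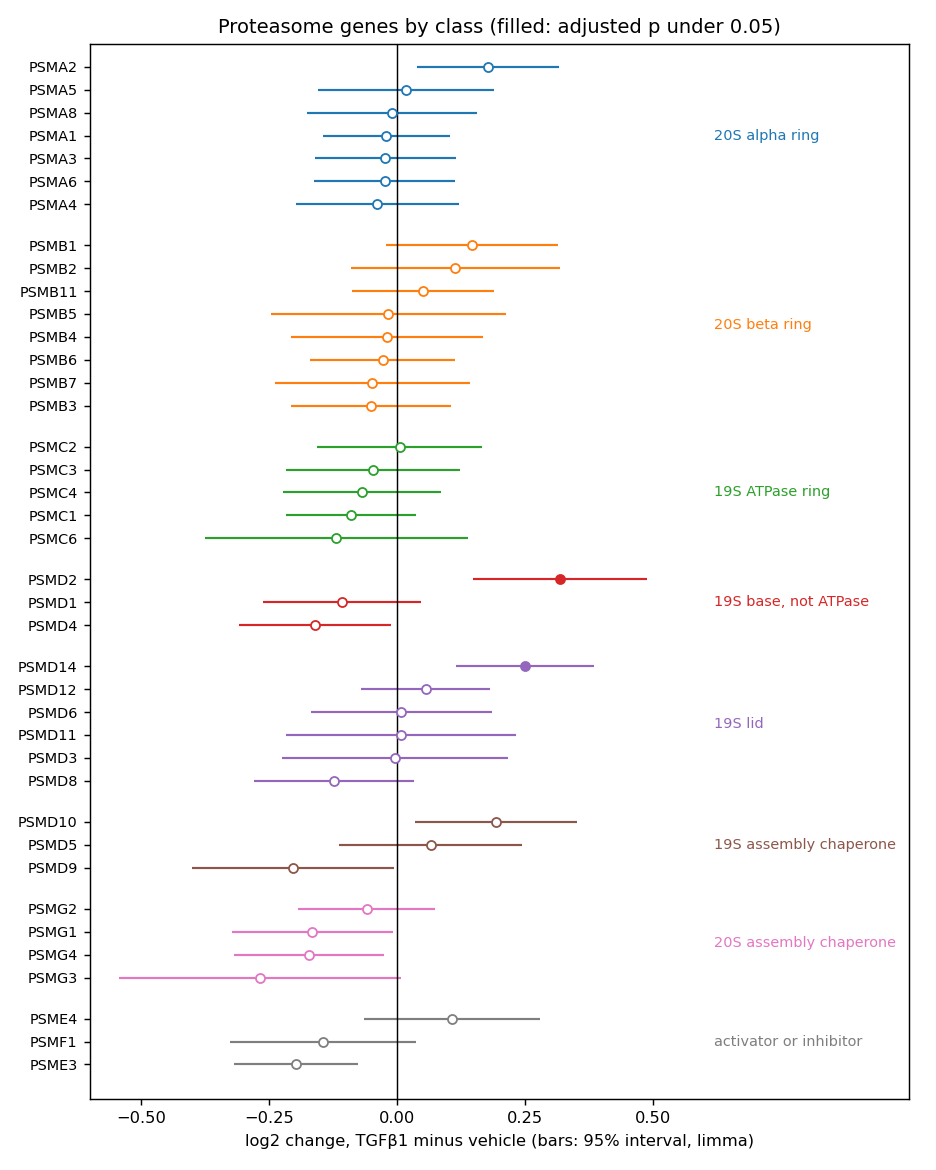
Log2 change under TGFβ1 for the 39 proteasome genes on the x axis, with 1 row per gene grouped by class. Points are limma estimates from 4 wells per group, bars are 95% intervals, and filled points mark PSMD2 and PSMD14, the only genes with an adjusted p under 0.05. Most intervals span 0, and all 4 core assembly chaperones (PSMG genes) lie to the left of it.

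The intervals show how large a change these arrays could have missed. Of the 39 genes, 38 had a 95% interval of the log2 change that lay within 0.5 on either side of 0, and 22 had one within 0.25. The exception to the first bound was PSMG3, whose interval ran from −0.54 to 0.0082. The median width from the estimate to the end of the interval was 0.16, from 0.12 for PSME3 to 0.28 for PSMG3. Of all 20045 genes, 19112 had an interval within 0.5 (95.3%, against 97.4% of the proteasome genes) and 12315 had one within 0.25. All these intervals are for single genes and were not widened for the number of genes. The number of arrays, 4 per group, limits their precision.

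**Figure D2:**
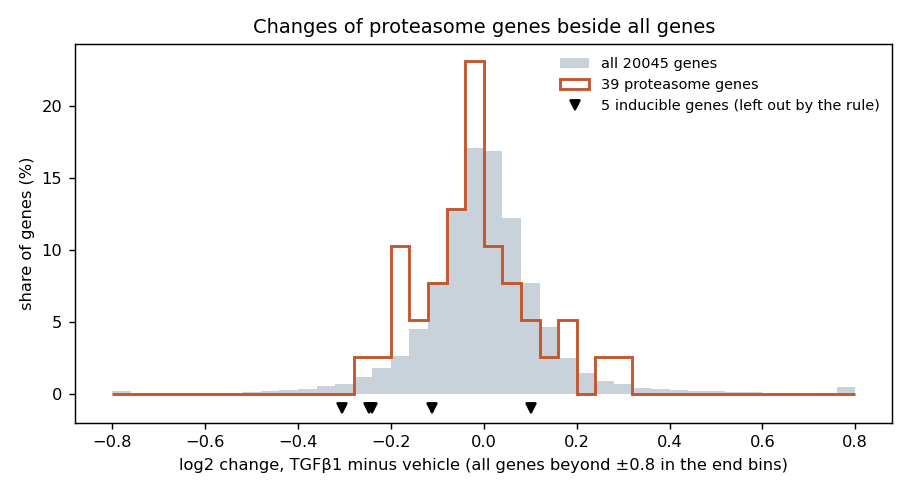
Share of genes in percent (y axis) by log2 change under TGFβ1 (x axis) for all 20045 genes in grey and the 39 proteasome genes as an orange outline. Triangles below the axis mark the 5 inducible proteasome genes, of which 4 lie below 0 and PSME1 at 0.10.

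PSMD2, a large scaffold protein at the base of the regulatory particle, showed the largest upward change. Its centred log2 values were −0.137, −0.302, 0.049 and −0.247 in vehicle replicates 1 to 4 and 0.199, 0.186, 0.039 and 0.214 in TGFβ1 replicates 1 to 4. The groups overlapped, because vehicle replicate 3 lay just above TGFβ1 replicate 3. The means were −0.16 ± 0.15 (SD, n = 4) and 0.16 ± 0.081 (SD, n = 4), which is a log2 change of 0.32 (SE 0.079, 1.25-fold, adjusted p = 0.0289 in limma). The call was kept in 2 of 8 fits that each left out 1 array, those without vehicle replicate 3 and without TGFβ1 replicate 3. It ended without vehicle replicate 1, 2 or 4 and without TGFβ1 replicate 1, 2 or 4, at changes from 0.27 to 0.33 and adjusted p values in limma from 0.0568 to 0.096.

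PSMD14, the metalloprotease of the lid that removes ubiquitin chains as the substrate enters, was the other gene that passed. Its values were −0.183, −0.030, −0.184 and −0.102 under vehicle and 0.138, 0.155, 0.177 and 0.028 under TGFβ1. Every TGFβ1 well lay above every vehicle well. The means were −0.12 ± 0.074 (SD, n = 4) and 0.12 ± 0.067 (SD, n = 4), a log2 change of 0.25 (SE 0.062, 1.19-fold, adjusted p = 0.0304 in limma). This call was kept without vehicle replicate 2 and without TGFβ1 replicate 4, and it ended without vehicle replicate 1, 3 or 4 and without TGFβ1 replicate 1, 2 or 3, at changes from 0.23 to 0.26 and adjusted p values in limma from 0.0618 to 0.0905. Both genes are read by 1 probe each, and adjusted over all probes instead of genes PSMD2 passed in limma (adjusted p = 0.045) and PSMD14 did not (adjusted p = 0.09). SAM called neither.

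The promoter stretches of the genes called here are shown to set PSMD2 and PSMD14 beside 2 inducible core subunits that fell, PSMB9 and PSMB10. Each is the 120 bases before the transcription start in RefSeq, build GRCh38.p14, read 5′ to 3′ in the direction of the gene. PSMD2 (plus strand, chr3:184299121-184299240) has a further annotated start downstream that is not printed. PSMD14 lies on the plus strand at chr2:161308305-161308424, PSMB9 on the plus strand at chr6:32854072-32854191 and PSMB10 on the minus strand at chr16:67936851-67936970. Capitals mark a CCAAT box, CCAAT on both strands and overlapping itself, in PSMD14 and the core of an interferon-stimulated response element, that is GAAA followed after 2 bases by GAAA, in PSMB10.
PSMD2: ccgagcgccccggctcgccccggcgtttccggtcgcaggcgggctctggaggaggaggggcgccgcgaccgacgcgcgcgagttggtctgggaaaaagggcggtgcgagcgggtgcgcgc
PSMD14: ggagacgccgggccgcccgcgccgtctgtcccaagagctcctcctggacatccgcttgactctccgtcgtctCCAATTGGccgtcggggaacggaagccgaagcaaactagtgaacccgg
PSMB9: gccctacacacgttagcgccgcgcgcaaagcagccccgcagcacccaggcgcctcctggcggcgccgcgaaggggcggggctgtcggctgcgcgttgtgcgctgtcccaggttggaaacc
PSMB10: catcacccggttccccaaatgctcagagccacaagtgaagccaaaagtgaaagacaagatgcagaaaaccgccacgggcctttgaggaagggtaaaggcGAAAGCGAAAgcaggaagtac

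A RefSeq promoter window, from 250 bases before to 50 after a start, was found for 34 of the 39 genes. Both strands were searched for 4 motifs, and a gene counted where any of its windows held one. The ETS core CCGGAAG was in 13 of the 34 (38.2%) and in 12.2% of all 27305 genes with a window, non-coding genes included. The antioxidant response element core TGACNNNGC, to which NFE2L1 and NFE2L2 bind, was in 11 (32.4%, against 16.1% of all), and the CCAAT box in 17, against 39.7% of all. PSMD14 was among the genes with a CCAAT box and with an ETS core, the latter starting 4 bases before the start and running past it, whereas neither window of PSMD2 held any of the 4 motifs. The interferon-stimulated response element core was in 3 of the 34 (PSMA4, PSMB4 and PSMG4, 8.82%, against 4.38% of all) and in 4 of the 5 inducible genes (PSMB8, PSMB10, PSME1 and PSME2). Of these 5, the antioxidant response element core was in 3 (PSMB9, PSME1 and PSME2), the CCAAT box in 1 (PSMB9) and the ETS core in 0. The matches in PSMB9 start at −148 and −243, outside the printed bases. In the windows of the proteasome and inducible genes no match overlapped one of a different motif. A match describes the letters and not a bound site.

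Of the alpha ring, 7 genes were measured and 0 passed in limma (1 at an unadjusted p under 0.05, 0 in SAM). PSMA2, the alpha subunit with the largest change, had values of −0.082, −0.111, −0.093 and −0.068 under vehicle and −0.064, 0.133, 0.182 and 0.104 under TGFβ1. The groups did not overlap, but TGFβ1 replicate 1 lay next to the vehicle wells and away from the other TGFβ1 wells. The log2 change was 0.18 (SE 0.064, adjusted p = 0.16 in limma). The other alpha genes, PSMA1, PSMA3, PSMA4, PSMA5, PSMA6 and the testis form PSMA8, lay between −0.039 (PSMA4) and 0.017 (PSMA5), and their 95% intervals together spanned −0.20 to 0.19.

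The beta ring held 8 measured genes, of which 0 passed in limma (0 at an unadjusted p under 0.05, 0 in SAM). The 3 subunits with active sites had estimates close to 0. PSMB5, which carries the chymotrypsin-like site, changed by −0.017 (95% interval −0.25 to 0.21), PSMB6, the caspase-like site, by −0.029 (−0.17 to 0.11) and PSMB7, the trypsin-like site, by −0.049 (−0.24 to 0.14). Among the structural subunits PSMB1 had the largest change at 0.15 (−0.023 to 0.32), followed by PSMB2 at 0.11 (−0.091 to 0.32), while PSMB3 lay at −0.052 and PSMB4 at −0.021. PSMB11, the beta subunit of the thymus, lay at 0.0505.

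TGFβ1 replicate 4 stood above the other TGFβ1 wells in several beta genes. PSMB4 was at −0.113, −0.111 and −0.111 in TGFβ1 replicates 1 to 3 and at 0.293 in replicate 4. PSMB2 was at −0.080, −0.008 and −0.069 and then at 0.385, and PSMB5 at −0.227, −0.094 and −0.013 and then at 0.30. Without that array the change of PSMB2 was 0.0045, that of PSMB4 −0.12 and that of PSMB5 −0.12. It was the highest of all 8 arrays for 9 of the 39 genes and the lowest for 6, while TGFβ1 replicate 1 was the highest for 4 and the lowest for 11. Over all genes TGFβ1 replicate 4 was the highest array in 16.5% and the lowest in 14.7%, and TGFβ1 replicate 1 in 11.4% and 12.1%.

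**Figure D3:**
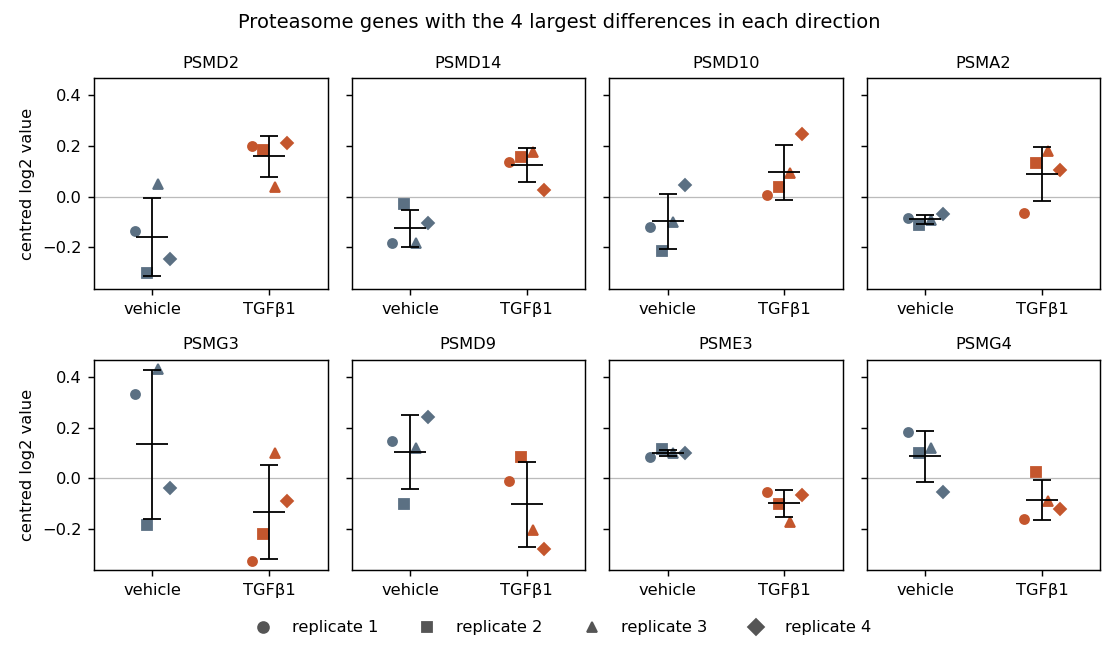
Centred log2 values (y axis) on each array for the proteasome genes with the 4 largest differences in each direction, with vehicle wells in blue-grey and TGFβ1 wells in orange and a symbol for each replicate number. Black bars are the mean ± SD of 4 wells. The groups do not overlap in PSMD14, PSMA2 and PSME3.

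The ATPase ring was measured through 5 genes, and 0 passed in limma (0 at an unadjusted p under 0.05, 0 in SAM). Their changes ran from −0.12 for PSMC6 to 0.0049 for PSMC2, with PSMC1 at −0.090, PSMC4 at −0.068 and PSMC3 at −0.048. PSMC6 had the widest spread, with TGFβ1 replicate 4 at −0.432 and vehicle replicate 4 at 0.242, and its change without TGFβ1 replicate 4 was 0.0054. The 3 probes of PSMC4 changed by 0.15, −0.15 and −0.20, and none passed over all probes (adjusted p = 0.617, 0.694 and 0.373 in limma).

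Besides PSMD2, the base of the regulatory particle includes PSMD1, a scaffold subunit, and PSMD4, a receptor for ubiquitin chains. PSMD1 lay at −0.11 (SE 0.072, adjusted p = 0.56 in limma). PSMD4, as the mean of its 3 probes, was at 0.169, 0.034, 0.079 and 0.039 under vehicle and at 0.010, 0.012, −0.234 and −0.110 under TGFβ1. The groups did not overlap, although TGFβ1 replicates 1 and 2 lay close to the vehicle wells, and the change of −0.16 (SE 0.069) did not pass (adjusted p = 0.267 in limma). Its probes disagreed. One fell by 0.38 (SE 0.088), with an adjusted p of 0.0167 in limma over all probes, and the other two lay at −0.14 (adjusted p = 0.632) and 0.037 (adjusted p = 0.949). Of the 60 proteasome probes, 1 was called higher (that of PSMD2) and 2 were called lower (1 each of PSMD4 and PSME3), beside 1.8% and 1.53% of all probes.

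The lid held 6 measured genes, of which PSMD14 alone passed. The others were PSMD12 at 0.055, PSMD6 at 0.0079, PSMD11 at 0.0073, PSMD3 at −0.0043 and PSMD8 at −0.12. PSMD12, read by 4 probes, was the most closely bounded of these, with a 95% interval from −0.070 to 0.18 and its probes between 0.043 and 0.066. PSMD11 varied most among vehicle wells, from −0.266 in replicate 1 to 0.350 in replicate 3, which is a wider range than that of its TGFβ1 wells (−0.041 to 0.089).

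The chaperones that assemble the proteasome are not part of the finished particle. For the regulatory particle these are PSMD5, PSMD9 and PSMD10, which hold the ATPases during assembly, and 0 of 3 passed in limma (2 at an unadjusted p under 0.05, 0 in SAM). PSMD10, also known as gankyrin, was at −0.120, −0.214, −0.098 and 0.047 under vehicle and at 0.006, 0.038, 0.092 and 0.249 under TGFβ1, which gave 0.19 (SE 0.074, adjusted p = 0.192 in limma). Its groups overlapped through vehicle replicate 4, and its 3 probes were close to each other, between 0.18 and 0.20. PSMD9 was at 0.147, −0.102, 0.120 and 0.243 under vehicle and at −0.010, 0.083, −0.204 and −0.278 under TGFβ1, which gave −0.20 (SE 0.091, adjusted p = 0.293). Its groups overlapped as well, and PSMD5 lay at 0.065 (SE 0.083).

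The 4 chaperones of the core particle all lay below 0, but 0 of 4 passed in limma (2 at an unadjusted p under 0.05, 0 in SAM). PSMG3 had the largest downward change of all proteasome genes and also the largest error. It was at 0.332, −0.186, 0.429 and −0.039 under vehicle and at −0.326, −0.222, 0.101 and −0.088 under TGFβ1. The groups overlapped between −0.186 and 0.101, with vehicle replicates 1 and 3 above every TGFβ1 well. The difference was −0.27 (SE 0.13, adjusted p = 0.341 in limma). PSMG4 was at 0.183, 0.099, 0.119 and −0.056 under vehicle and at −0.160, 0.026, −0.090 and −0.121 under TGFβ1. Vehicle replicate 4 lay among the TGFβ1 wells, and the change was −0.17 (SE 0.068, adjusted p = 0.213 in limma). PSMG1 lay at −0.17 (SE 0.073, adjusted p = 0.284) and PSMG2, which pairs with PSMG1, at −0.059 (SE 0.062, adjusted p = 0.769). In limma over all probes, the 2 probes of PSMG4 lay at −0.29 (adjusted p = 0.0597) and −0.053 (adjusted p = 0.916). Those of PSMG1 lay at −0.26 (adjusted p = 0.0772) and −0.072 (adjusted p = 0.894).

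PSME3 and PSME4 open the core particle without the regulatory particle, mainly in the nucleus, and PSMF1 was first described as an inhibitor. PSME3 came nearest to the threshold from outside. Its values under vehicle were 0.083, 0.115, 0.098 and 0.101, and under TGFβ1 they were −0.053, −0.103, −0.173 and −0.066. The groups did not overlap and the vehicle wells lay close together. The difference was −0.20 (SE 0.056, adjusted p = 0.0587 in limma). One of its 2 probes fell by 0.29 (adjusted p = 0.0486 over all probes) and the other lay at −0.11 (adjusted p = 0.753). PSME4 lay at 0.11 (SE 0.080) and PSMF1 at −0.14 (SE 0.084), the latter with TGFβ1 replicate 4 at −0.303 and the other TGFβ1 wells between −0.022 and 0.029. Over all 39 genes the groups did not overlap in 4 (PSMD14 and PSMA2 above, PSME3 and PSMD4 below), which is 10.3%. Among all genes it was 10.3% too, with 5.2% above and 5.07% below.

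The inducible proteasome genes, left out of the 39, included 2 that fell and 0 that rose among 5 measured (limma, adjusted p under 0.05). Of all genes, 2.67% were called lower and 3.03% higher, and a share over 5 genes is too coarse to compare. PSMB10, the inducible counterpart of PSMB7, was at 0.192, 0.188, 0.041 and 0.072 under vehicle and at −0.105, −0.106, −0.116 and −0.166 under TGFβ1. Its groups did not overlap, and its change was −0.25 (SE 0.060, adjusted p = 0.0254 in limma). PSMB9, which replaces PSMB6, was at 0.107, 0.085, 0.285 and 0.132 under vehicle and at 0.019, −0.309, −0.116 and −0.203 under TGFβ1. Every TGFβ1 well lay below every vehicle well, and the change was −0.30 (SE 0.077, adjusted p = 0.0313 in limma). Adjusted over all probes, a PSMB9 probe passed in limma (−0.39, adjusted p = 0.0129) and its other probe did not (−0.22, adjusted p = 0.389). The only probe of PSMB10 did not pass over all probes (adjusted p = 0.0859 in limma). SAM called neither PSMB9 nor PSMB10. The call for PSMB10 was kept without vehicle replicate 3 or 4 and ended without any other array, and that for PSMB9 was kept without TGFβ1 replicate 1 and ended without any other array, with adjusted p values in limma up to 0.0834 and 0.104. PSMB8, which replaces PSMB5, lay at −0.24 (SE 0.10, adjusted p = 0.253), with vehicle replicate 3 at 0.442 and vehicle replicates 1 and 2 at −0.048 and −0.102. The activator subunits PSME1 and PSME2 lay at 0.10 (adjusted p = 0.632) and −0.11 (adjusted p = 0.56).

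**Figure D4:**
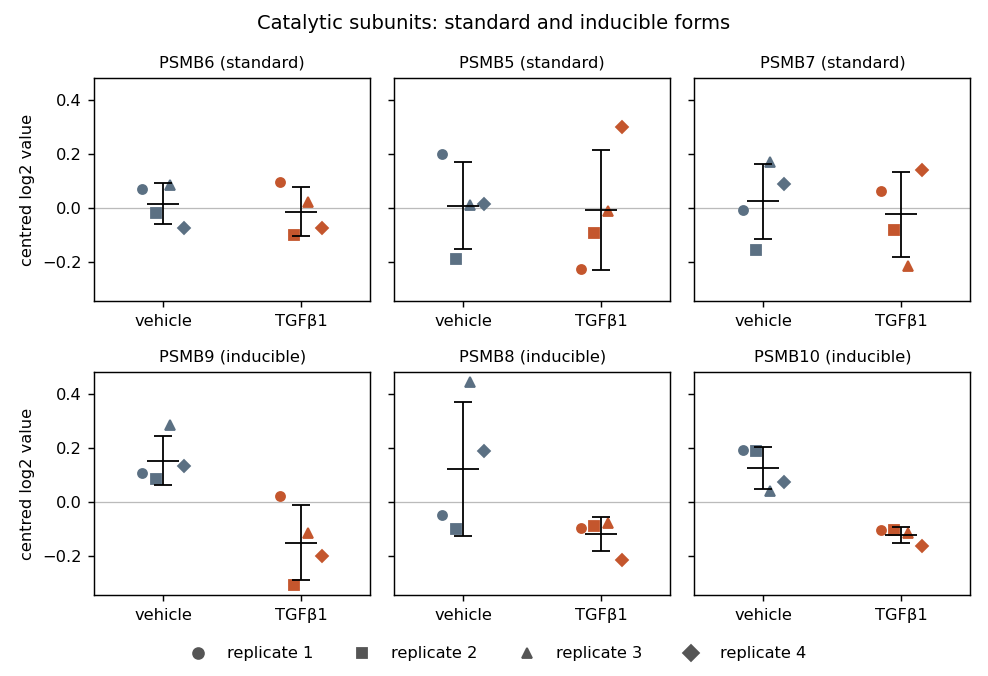
Centred log2 values (y axis) on each array for the catalytic subunits of the standard core (upper row) and their inducible counterparts (lower row), by group, with the mean ± SD of 4 wells in black. The TGFβ1 wells lie below all vehicle wells in PSMB9 and PSMB10 and overlap with them in the other 4 genes.

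Whether the standard and the inducible form of a subunit responded differently was tested on the difference of their log2 values in each well. For PSMB6 minus PSMB9 this was −0.039, −0.105, −0.20 and −0.208 under vehicle and 0.078, 0.209, 0.135 and 0.129 under TGFβ1. The groups did not overlap, and the difference was 0.28 higher under TGFβ1 (SE 0.049). A two-sided exact permutation test gave p = 0.0286, which no result could undercut with 4 wells in each group, and 0.0857 after adjustment over 3 pairs. A pair at that floor cannot pass this adjustment alone, and its adjusted value depends also on the exact p-values of the other pairs. PSMB5 minus PSMB8 was 0.22 higher (SE 0.20, exact p = 0.343, adjusted 0.343) and PSMB7 minus PSMB10 was 0.20 higher (SE 0.14, exact p = 0.2, adjusted 0.3). All 3 differences pointed the same way, which restates that PSMB8, PSMB9 and PSMB10 changed further downward than their standard counterparts on these arrays. For the last 2 pairs the groups overlapped.

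Genes of proteins that work with the proteasome under other names were read from lists that were drawn up with earlier results of these data known. Among 15 partners, 0 were higher and 2 were lower in limma (1 above and 2 below 0 at an unadjusted p under 0.05), with a median log2 change of 0.060. Of all genes, 3.03% were called higher and 2.67% lower, and 15.6% had an unadjusted p under 0.05. PITHD1, a protein found bound to proteasomes, was at 0.257, 0.207, 0.151 and 0.188 under vehicle and at −0.212, −0.202, −0.380 and −0.008 under TGFβ1, which gave −0.40 (SE 0.075, adjusted p = 0.00505 in limma). The groups did not overlap, and the call was kept without each array in turn. FBXO7, an F-box protein that binds PSMF1, fell by 0.30 (SE 0.068, adjusted p = 0.0158), and its groups did not overlap either. That call ended without vehicle replicate 1 or 4 and without TGFβ1 replicate 3, at adjusted p values from 0.0511 to 0.0557. It also ended when the gene was read by its most variable probe (adjusted p = 0.137), and SAM did not call the gene. POMP, the maturation factor of the core particle, lay at 0.062, the ubiquitin receptor ADRM1 at 0.0605, the lid subunit SEM1 at 0.040, and the deubiquitinases USP14 and UCHL5 at 0.060 and −0.079.

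Of 12 measured genes of ubiquitin, its activating enzymes and the factors that carry substrates to the proteasome, 0 passed in limma (2 at an unadjusted p under 0.05, both below 0), and of 13 genes of the transcriptional control of the proteasome 0 passed as well (3 at an unadjusted p under 0.05). SAM called 0 genes in both lists. NFE2L1 was at 0.049, 0.156, 0.251 and −0.027 under vehicle and at −0.202, −0.210, −0.021 and 0.004 under TGFβ1. Its groups overlapped through vehicle replicate 4, and the change of −0.21 (SE 0.077) did not pass (adjusted p = 0.157 in limma). NFE2L2 lay at 0.056 (SE 0.068) and NFE2L3 at −0.017 (SE 0.069). The ubiquitin gene UBB lay at −0.035 and the activating enzyme UBA1 at −0.013, while VCP, the ATPase that extracts ubiquitinated proteins from complexes and membranes, lay at −0.27 (SE 0.080, adjusted p = 0.0665).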

How the data were processed

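The deposited values are log2 intensities of 47315 probes on 8 Illumina HT-12 arrays. According to the methods, the authors quantile normalised the raw data, removed control probes in BASE, and then took log2 with centring of genes and of samples in MeV. Probe means were 0 within 1.6e-07 and array means within 1.8e-05. The log base is taken from the methods, and without intensity levels or detection calls dim probes could not be left out. No 2 arrays held identical values.

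Of the probes, 30105 had 1 symbol in GEO's platform annotation, 8 had several and 17202 had none, which gave 20045 genes. Probes of 1 gene were averaged. Groups were compared with limma 3.58.1 (lmFit, eBayes; R 4.3.3) and Benjamini-Hochberg adjustment over all genes or all probes, without covariates. SAM was coded anew on gene means over all 70 labellings at a median of 10 false positives. The fits were tested on simulated data. For differences of 2 genes the permutation test was exact and two-sided (scipy 1.17.1). Every proteasome gene is named, those called and those with the 4 largest changes in each direction are given by array, and probes are given where they differ by over 0.3. Of the related lists the called genes are named, and other genes, probes and arrays given were chosen after their values were seen. The rule for the members uses symbols only, but this gene family and the lists were picked for study with earlier results of these data known. Tables and plots were made in Python 3.11.15 with numpy 2.4.6, pandas 2.3.3 and matplotlib 3.10.9. The alternatives were SAM, quantile normalisation once more, scaling to a common median, array weights, the replicate number as a block, for each gene its most variable probe, calls by any probe, an adjusted p under 0.01 and leaving out each array.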

Additional observations from a re-analysis of the deposited data

Results flagged for a closer look

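In 6 of 96 groups of 4 wells, from 48 genes, 1 well stood apart from the other wells by Dixon's test, where chance gives about 1 group in 20. The TGFβ1 wells held 5 of these cases and TGFβ1 replicate 4 held 4 of them. That well was at 0.385 for PSMB2 and at 0.293 for PSMB4, above the other TGFβ1 wells, and at −0.303 for PSMF1 and −0.215 for PSMB8, below them. TGFβ1 replicate 3 was the low well of PSMD2, at 0.039. Vehicle replicate 1 was the high well of PSMA8, at 0.191. Among the 8 arrays limma gave TGFβ1 replicate 4 the lowest weight, 0.674. Without that array the log2 change went from 0.11 to 0.0045 for PSMB2, from −0.021 to −0.12 for PSMB4, from −0.14 to −0.068 for PSMF1 and from −0.24 to −0.21 for PSMB8. None of these 4 genes was called with it or without it.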

How the results depend on the processing

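Of the proteasome genes, 2 were called higher in the fit reported. With the replicate number as a block this was 0 (PSMD2 adjusted p = 0.072, PSMD14 0.0666 in limma), at an adjusted p under 0.01 it was 0, with SAM 0, with the most variable probe of each gene 1 (PSMD2), with a call by any probe 1 (PSMD2), and without 1 array 0 to 1. PSMD14 has 1 probe, so the most variable probe left its values and its change the same. The limma fit over all genes was a different one, and its adjusted p there was 0.0755. The 0 called lower became 1 with array weights (PSME3), 3 with the most variable probe (PSMD4, PSME3 and PSMG4) and 2 with any probe (PSMD4 and PSME3), and stayed at 0 without each array in turn. Of the related genes, inducible genes included, 4 were called lower. This was 2 with the most variable probe (FBXO7 and PSMB10 were lost, adjusted p = 0.137 and 0.0725), 1 at an adjusted p under 0.01, 1 with SAM (PITHD1) and 1 to 3 without 1 array. PSMB10 has 1 probe too, so its values were unchanged by the choice of probe. The 0 related genes called higher were 0 to 1 without 1 array, the 1 being TXNL1 without TGFβ1 replicate 4 (0.52, adjusted p = 0.0152, against 0.29 and 0.522 with it). PSMB10 also missed the threshold under the block (0.0522). VCP passed with array weights (adjusted p = 0.04) and without TGFβ1 replicate 4 (0.0211). The causes were not tested beyond what each setting leaves out. Normalising by quantiles once more and scaling to a common median changed no call of a proteasome gene, and no called value changed sign under any alternative. Over the fits without 1 array, 25 of the 39 proteasome genes kept their direction in all 8. Same-numbered arrays did not deviate together, with correlations from −0.04 to 0.026. Only for replicate 2 (0.026) did each array match its own number best. A pairing of the wells by number was thus not seen, though correlations this close to 0 cannot exclude one. Depth has no counterpart in these values, and signal over background could not be read.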
